A study of Mus musculus with 17 samples.

Results

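Heat shock chaperone genes were followed in sorted cells of mouse lung tumors: Hspa1a, Hspa1b, Dnajb1, Hsph1, Hsp90aa1, Hsp90ab1, Hspd1, Hspe1, Hspb1 and the transcription factor gene Hsf1. These 10 genes were chosen by name among 17556 genes listed in any of 3 expression tables. Bulk RNA sequencing had been carried out on tumor cells, TRMs and MDMs, TRMs and MDMs being macrophage populations named here as the labels abbreviate them, with 2 KL and 2 KLG4 libraries of each, which gave 12 libraries in 6 groups. Tumor cells of both genotypes carried Lkb1fl/fl, from which Cre removes Lkb1 (gene symbol Stk11), and a further Cre-dependent allele that is not described here. KLG4 mice carried Gpx4m/m in addition, an allele in which Cre releases a CAG-driven, tamoxifen-dependent Dre recombinase that then cuts out exons of Gpx4, a lipid peroxide reductase. Mice of both genotypes received Ad-Cre into the nose at an age of 8 to 10 weeks and then tamoxifen, and cells were collected at week 10 after infection. The virus is not restricted to a cell type, no group lacks Cre or tamoxifen, and the labels do not say which libraries came from separate mice, so the p-values below measure the spread between libraries, which may be technical.

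Heat shock proteins are chaperones that hold or refold other proteins. At rest the factor HSF1 is kept inactive by chaperones, and when unfolded proteins occupy them HSF1 forms trimers, binds heat shock elements made of inverted GAA units, and raises transcription of the chaperone genes. Hspa1a and Hspa1b are the classical inducible HSP70 genes, whereas Hsp90ab1, Hspd1 and Hspe1 are transcribed at high levels in most cells without stress. Lung cancer cells commonly contain large amounts of these proteins, and warm enzymatic dissociation of tissue, used before these sorts, is itself known to induce HSP70 genes.

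The sequences before the start sites show how closely the members are related at the promoter. RefSeq promoter windows (build GRCm38.p6, the 250 bases before each start) were at hand for 7 of the 10 members, with no window for Hsf1, Hsp90aa1 and Hsp90ab1. The inducible pair Hspa1a and Hspa1b is shown whole because the windows differ at only 3 of 250 positions (98.8% identical). Capitals mark each match to the 8-letter element GAANNTTC or TTCNNGAA, and each of these letter patterns reads the same on both strands.
Hspa1a, chr17:34972157-34972406, minus strand: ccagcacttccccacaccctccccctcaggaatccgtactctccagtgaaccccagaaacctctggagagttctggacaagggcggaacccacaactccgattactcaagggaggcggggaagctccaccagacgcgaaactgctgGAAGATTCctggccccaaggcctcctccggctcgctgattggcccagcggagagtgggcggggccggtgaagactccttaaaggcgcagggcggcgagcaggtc
Hspa1b, chr17:34959239-34959488, minus strand: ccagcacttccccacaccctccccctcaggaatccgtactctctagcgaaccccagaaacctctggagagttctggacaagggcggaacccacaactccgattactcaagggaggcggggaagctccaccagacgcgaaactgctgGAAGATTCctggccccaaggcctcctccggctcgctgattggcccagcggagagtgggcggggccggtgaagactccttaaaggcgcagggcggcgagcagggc
Each holds a single match, centred 100 bases before the start.

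Hspd1 and Hspe1 lie head to head on chromosome 1 and overlap by 112 bases in the annotation of the tables, and the same 18 bases serve both windows, read on opposite strands. The stretch is shown from each side, followed by the matches at Hsph1 and Hspb1, to show elements of different spacing.
Hspe1, chr1:55088053-55088082, plus strand: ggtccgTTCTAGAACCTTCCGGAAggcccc
Hspd1, chr1:55088053-55088082, minus strand: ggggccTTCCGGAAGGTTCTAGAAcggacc
Hsph1, chr5:149636351-149636380, minus strand: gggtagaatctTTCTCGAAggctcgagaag
Hspb1, chr5:135887776-135887855, plus strand: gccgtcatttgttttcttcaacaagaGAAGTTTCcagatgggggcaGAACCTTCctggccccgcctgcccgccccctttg
The capitals at Hspe1 and Hspd1 hold 3 overlapping 8-letter matches and, within them, 2 matches to the longer elements GAANNTTCNNGAA or TTCNNGAANNTTC. Of the 7 members with a window, 6 had an 8-letter match and 2 a 13-letter match. These 2 are Hspd1 and Hspe1, which share the stretch, and the other window of Hspd1 held no match. Of all 27025 genes with a window, 14.5% had an 8-letter match and 0.514% a 13-letter match. Dnajb1 was the member without a match in its windows. A match describes letters and not a bound site.

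Counted reads per library, recovered from the steps of the values, were 15.9 to 36.6 megareads in tumor cells, 9.14 to 26.8 in TRMs and 10.4 to 26.1 in MDMs. Gpx4 was at 94.95 and 76.8 RPKM (read number divided by gene length and by the library's total) in KL tumor cells and at 56.4 and 61.9 RPKM in KLG4 tumor cells, a log2 fold change of -0.53 (adjusted p = 0.036, limma). In TRMs Gpx4 was at 89.8 and 88.2 RPKM in KL against 53.8 and 57.0 RPKM in KLG4 (-0.68, adjusted p = 0.070, limma), and in MDMs at 44.9 and 71.3 RPKM in KL but 93.6 and 97.7 RPKM in KLG4 (0.76, adjusted p = 0.679, limma). Stk11 was above in KLG4 libraries of all 3 populations, at 25.9 and 25.8 RPKM in KL against 61.6 RPKM in each KLG4 library in tumor cells (1.25, adjusted p = 0.00090, limma), with log2 fold changes of 0.88 in TRMs and 1.49 in MDMs (adjusted p = 0.059 and 0.679, limma). The 2 KLG4 tumor cell libraries were nearly alike, with a mean chi-square per gene of 3.28 against 60.4 for the KL pair and 28.9 to 131.6 for the TRM and MDM pairs. Mitochondrially encoded genes took 1.43% and 2.40% of reads in KLG4 TRMs and 13.2% and 9.17% in KL TRMs, and the reverse order was seen in tumor cells (8.95% and 8.88% in KLG4, 4.21% and 5.12% in KL). Xist was at 18.3 and 20.2 RPKM in KLG4 TRMs and at 0.257 and 0.501 RPKM in KL TRMs, so sex and genotype cannot be told apart in TRMs. In MDMs, KL replicate 2 was the library with low Xist (0.839 RPKM, against 19.4 to 21.8 RPKM in the other 3). Every tumor cell library had both Xist (4.17 to 6.18 RPKM) and the Y-linked Eif2s3y (7.27 to 9.26 RPKM).

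Most of the chaperone members were called lower in KLG4 tumor cells. Of the 10 members 7 passed an adjusted p of 0.05 in limma and all 7 were lower, where 40.3% of all tested genes passed in either direction and 19.6% passed as lower. The background split of 2843 higher and 2700 lower genes shifted to 2585 and 4130 under quantile scaling and to 3151 and 1965 when reads of mitochondrially encoded genes and their nuclear copies were taken out. The 7 were Hspa1a, Hspa1b, Dnajb1, Hsph1, Hsp90ab1, Hspd1 and Hspe1, with log2 fold changes from -0.996 to -0.48. Hsp90aa1 was below without passing, and Hspb1 and Hsf1 overlapped between genotypes. The median log2 fold change of the 10 members was -0.64, against -0.09 over all 13770 tested genes.

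Among the members Hspa1a and Hspe1 had the largest fold changes with all libraries kept. Without KL replicate 1 the log2 fold change of Hspa1b (-0.93) was larger than that of Hspe1 (-0.75). Hspa1a (chromosome 17, 34969190 to 34972156, minus strand) encodes an HSP70 that binds exposed hydrophobic stretches of unfolded proteins. It was at 394 and 447 RPKM in the KL tumor cell libraries and at 210 RPKM in each KLG4 library. Both KLG4 libraries lay below both KL libraries, and Hspa1a fell by 0.996 on the log2 scale (SE 0.12, adjusted p = 0.00247, limma), which left it at 0.5004 of the KL level. Hspa1b (chromosome 17, 34956436 to 34959238, minus strand), the sister gene 9951 bases away, was at 472 and 625 RPKM in KL and at 331 and 324 RPKM in KLG4. It also did not overlap between genotypes and fell by 0.73 (SE 0.16, adjusted p = 0.0201, limma). Under quantile scaling Hspa1b was at -0.59 with an adjusted p of 0.060, and over all alternatives its adjusted p ran from 0.000121 to 0.184 in limma.

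The division of reads within this pair is uncertain. Of the 75-base stretches of Hspa1a, which are shorter than the reads and so overstate the overlap, 61.7% also occur in transcripts of other genes, most of them (52.7%) in Hspa1b. Gm20481, a predicted gene on the opposite strand, has all 564 of its exon bases inside the single exon of Hspa1a, and the library kit did not keep strand. Gm20481 was listed at 891 and 966 RPKM in KL and at 396 and 377 RPKM in KLG4 tumor cells. When its reads were put back to Hspa1a, per kilobase of Hspa1a, the level was 563 and 631 RPKM in KL against 286 and 282 RPKM in KLG4, a log2 ratio of the means of -1.07. This sum assumes that reads listed for Gm20481 were not also counted for Hspa1a, which was not tested. The order of the libraries in the sum was as for Hspa1a alone.

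Dnajb1 and Hsph1, members that encode partners of HSP70, were lower as well. Dnajb1 (chromosome 8, 83608193 to 83612653, plus strand) encodes a J-domain protein, HSP40, that passes clients to HSP70 and stimulates its ATPase. It was at 81.5 and 67.6 RPKM in KL and at 47.8 and 45.6 RPKM in KLG4 tumor cells, and it fell by 0.67 (SE 0.14, adjusted p = 0.0140, limma). Hsph1 (chromosome 5, 149614287 to 149636376, minus strand) encodes HSP110, which exchanges the nucleotide of HSP70 during disaggregation. It was at 67.0 and 69.5 RPKM in KL against 49.8 and 47.8 RPKM in KLG4 and fell by 0.48 (SE 0.11, adjusted p = 0.0194, limma), the smallest change among those called. Without the mean-variance trend its adjusted p was 0.054, and over all alternatives the adjusted p of Hsph1 ran from 0.00335 to 0.285.

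The HSP90 genes were the most abundant members. Hsp90ab1 (chromosome 17, 45567775 to 45573271, minus strand), the constitutive cytosolic HSP90, was at 3722 and 3558 RPKM in KL and at 2296 and 2302 RPKM in KLG4 tumor cells. The KLG4 pair lay well below, and Hsp90ab1 fell by 0.66 (SE 0.13, adjusted p = 0.0139, limma). Hsp90aa1 (chromosome 12, 110690605 to 110702728, minus strand), the stress-inducible HSP90, was at 1192 and 1344 RPKM in KL and at 990 and 933 RPKM in KLG4. Its libraries did not overlap, but its log2 fold change of -0.40 (SE 0.13) had an adjusted p of 0.062 in limma. On the recovered reads limma-voom gave Hsp90aa1 the same log2 fold change with an adjusted p of 0.031, within a range of 0.00148 to 0.540 over all alternatives. For Hsp90aa1, 42.8% of 75-base stretches also occur in other genes, mainly in Gm12346, against 0.537% for Hsp90ab1.

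Both mitochondrial chaperonin genes were lower in KLG4 tumor cells. Hspd1 (chromosome 1, 55077835 to 55088243, minus strand) encodes HSP60, the barrel in which imported proteins fold, and Hspe1 (chromosome 1, 55088132 to 55091307, plus strand) encodes HSP10, its lid. Hspd1 was at 190 and 169 RPKM in KL and at 118 and 115 RPKM in KLG4, and it fell by 0.62 (SE 0.12, adjusted p = 0.0110, limma). Hspe1 was at 213 and 157 RPKM in KL and at 94.5 and 91.5 RPKM in KLG4, and it fell by 0.97 (SE 0.17, adjusted p = 0.00873, limma). The ratio of Hspe1 to Hspd1 was 1.12 and 0.927 in KL and 0.801 and 0.793 in KLG4, so it did not overlap between genotypes, and this difference was not tested.

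Hspb1 and Hsf1 were not called in tumor cells. Hspb1 (chromosome 5, 135887919 to 135889563, plus strand) encodes HSP27, a small ATP-independent holdase, and was at 50.6 and 60.3 RPKM in KL against 59.5 and 53.8 RPKM in KLG4 (log2 fold change 0.03, SE 0.14, adjusted p = 0.862, limma). Of its 75-base stretches, 46.4% also occur in Hsp25-ps1, a pseudogene. Hsf1 (chromosome 15, 76477445 to 76500972, plus strand), whose product is controlled largely by its own chaperones and not by its transcript, was the lowest member at 5.41 and 5.95 RPKM in KL and 5.22 and 6.94 RPKM in KLG4 (log2 fold change 0.08, SE 0.19, adjusted p = 0.755, limma). Hsf1 rested on 186 to 400 reads per tumor cell library. For both genes the genotypes overlapped, and the sign turned when single libraries were left out.

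**Figure D1:**
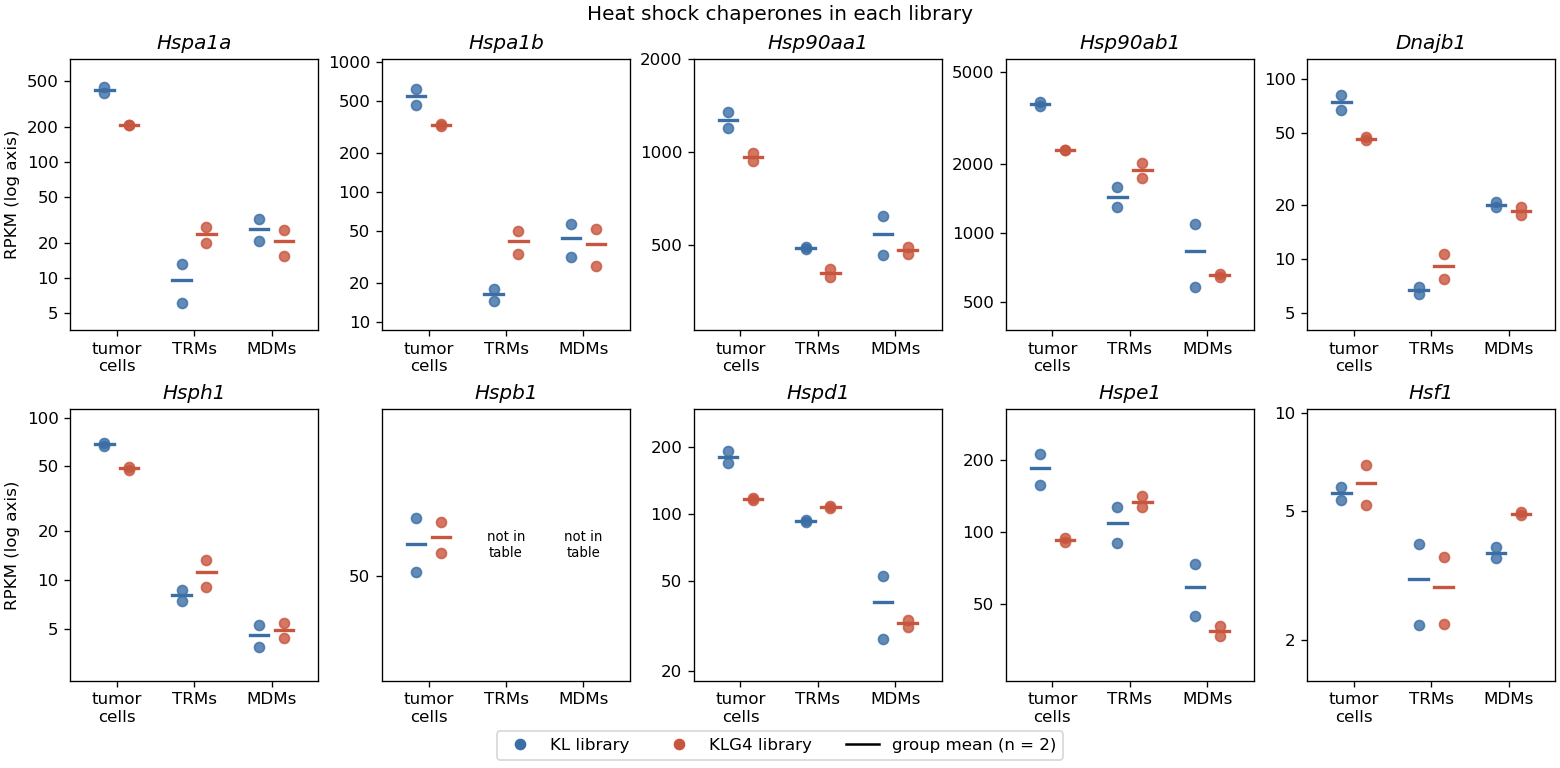
RPKM (log axis) of each member in each library, by population, with KL in blue and KLG4 in red, points for libraries and bars for means of 2. In tumor cells the KLG4 points of Hspa1a, Hspa1b, Hsp90aa1, Hsp90ab1, Dnajb1, Hsph1, Hspd1 and Hspe1 lie below both KL points, and TRM and MDM levels of Hspa1a and Hspa1b are far below those of tumor cells.

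The calls in tumor cells needed both KLG4 libraries. In 8 of 10 members both KLG4 libraries were below both KL libraries, where 42.2% of all tested genes were. The median absolute log2 difference between replicates over the members was 0.0533 in KLG4 and 0.178 in KL tumor cells. Without KLG4 replicate 1 none of the 7 called members passed (adjusted p 0.051 to 0.321, limma), and without KLG4 replicate 2 none did either (0.054 to 0.309), with all 7 still lower. The share of all tested genes that passed was 15.7% and 14.8% in these 2 fits, in which the single KLG4 library is assumed to vary like the KL pair. Without KL replicate 1 or KL replicate 2, 8 members passed, where 48.8% and 54.3% of all tested genes did. Under the other alternatives that kept all libraries, 6 to 8 members passed, all as lower, where 36.3% to 48.8% of all tested genes passed in either direction.

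The KLG4 tumor cell libraries also differed in their cell type markers, and in bulk samples fewer cells of a type and less RNA per cell cannot be told apart. All 8 epithelial markers fell in KLG4, with a summed level of 8559 and 6387 RPKM in KL against 3690 and 3701 RPKM in KLG4, as did all 8 markers of alveolar type 2 cells. All 8 leukocyte markers rose, with a sum of 19.8 and 27.6 RPKM in KL against 274 and 281 RPKM in KLG4, as did all 9 tested macrophage markers (230 and 290 RPKM against 916 and 948 RPKM). The 10 fibroblast markers summed to 13 and 17.9 RPKM in KL and 405 and 403 RPKM in KLG4. T cell markers summed to 1.45 and 2.65 RPKM in KL against 55.3 and 62.4 RPKM in KLG4, and neutrophil markers to 630 and 599 RPKM against 2776 and 2702 RPKM. The part of these cells in the fall of the chaperone genes was not tested.

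Immediate early genes, which respond to tissue dissociation among other stimuli, were counted as well. Of 16 immediate early genes tested in tumor cells, 3 were called higher in KLG4 (18.8%, against 20.6% of all tested genes) and 2 lower (12.5%, against 19.6%), and the median log2 fold change was 0.05 (-0.09 over all tested genes). Egr2 rose by 2.02, Zfp36 by 1.31 and Socs3 by 0.84 on the log2 scale (adjusted p 0.000986, 0.00120 and 0.00293, limma), and the 2 lower genes were Fos (-0.75) and Atf3 (-0.46), the latter pair named after their values were seen. The part of dissociation in the chaperone levels was not tested.

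**Figure D2:**
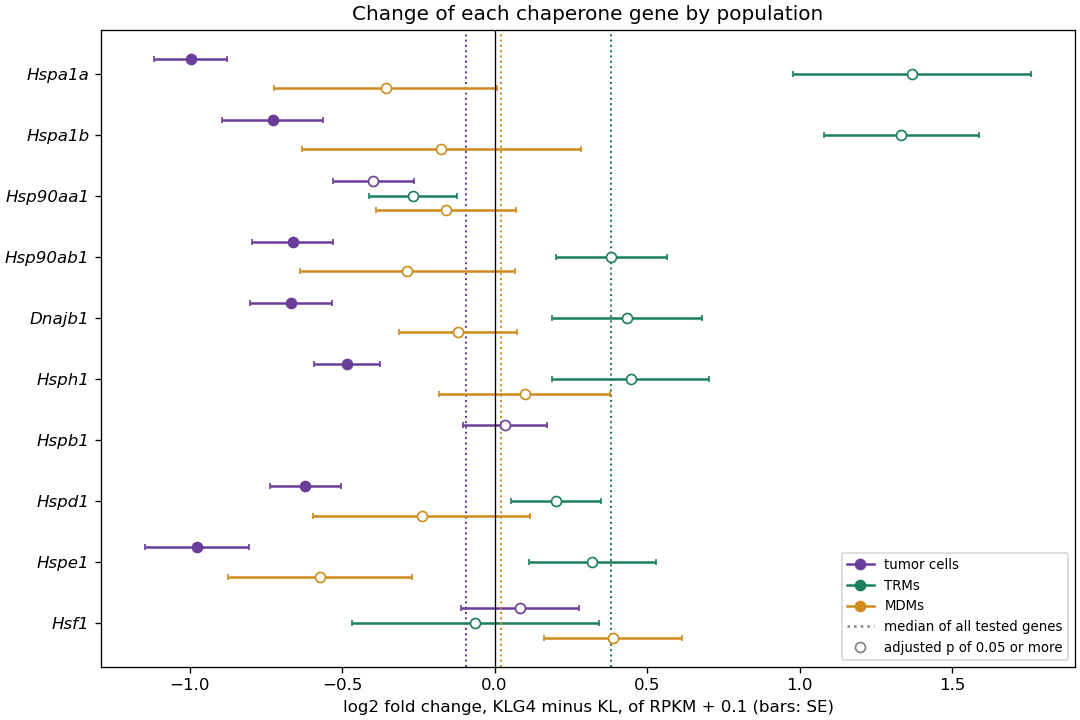
Log2 fold change of each member, KLG4 minus KL, with SE, in tumor cells (purple), TRMs (green) and MDMs (orange). Filled points passed an adjusted p of 0.05 in limma and dotted lines give the median of all tested genes of each population (-0.09, 0.38 and 0.02). All 7 filled points are purple and lie at or below -0.48.

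Other chaperone genes of tumor cells were counted over 7 lists that hold 91 tested genes besides the members. Of the 91 genes 39 fell (42.9%, against 19.6% of all tested genes) and 3 rose (20.6% of all tested genes did), with a median log2 fold change of -0.35. The 42 called genes (46.2%, against 40.3% of all tested genes) became 46 under quantile scaling (50.5%, against 48.8%) and in limma-voom (50.5%, against 40.9%). They became 23 without the mean-variance trend (25.3%, against 37.1%), 27 under TMM scaling (29.7%, against 37.8%) and 27 outside mitochondrially encoded genes and their nuclear copies (29.7%, against 36.3%). These shares count both directions together and were below those of all genes. By direction, 21, 23 and 23 of the called genes were lower and 2, 4 and 4 higher. Without KLG4 replicate 1 there were 7 (7.69%, against 15.7%) and without KLG4 replicate 2 there were 6 (6.59%, against 14.8%). The lists were drawn up with earlier results of these data known, and the counts describe them only.

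In the list of TRiC, the ring chaperonin that folds actin and tubulin, and prefoldin, which delivers these clients to it, 11 of 14 genes fell (78.6%). None rose and the median was -0.55, where 19.6% of all tested genes fell and 20.6% rose. The prefoldin subunit genes Pfdn4 (-1.55, adjusted p = 0.00472), Pfdn2 (-1.55, adjusted p = 0.00146) and Pfdn1 (-1.36, adjusted p = 0.00178) led it. Pfdn2, for example, was at 139 and 106 RPKM in KL against 41.3 and 41.9 RPKM in KLG4. Of 16 HSP90 cochaperone genes 9 fell (56.2%, against 19.6% of all tested genes) and none rose (median -0.47). The leading ones were Fkbp8 (-0.93), an immunophilin of the mitochondrial surface, Ahsa2 (-0.77), related to the ATPase activator of HSP90, and Fkbp4 (-0.75), an immunophilin of steroid receptor complexes, with adjusted p-values of 0.00846, 0.0142 and 0.00404 in limma.

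The HSP70 partner list was mixed. Of its 21 genes 8 fell (38.1%, against 19.6% of all tested genes), 2 rose (20.6% of all tested genes did) and the median was -0.26. Hspa1l, the HSP70 gene next to Hspa1a, fell from 6.37 and 7.60 RPKM to 1.63 and 1.47 RPKM, and Bag2, an inhibitor of the ubiquitin ligase CHIP, fell from 7.81 and 6.45 RPKM to 2.72 and 2.61 RPKM. Dnajb4, another J-domain gene, rose by 0.76 (adjusted p = 0.00985, limma). Of 15 mitochondrial quality control genes 6 fell (40.0%, against 19.6% of all tested genes) and none rose (median -0.31). Those that fell included Grpel1 (-0.90), the nucleotide exchange factor of the mitochondrial HSP70, Hspa9 (-0.59), that HSP70 itself, and Afg3l2 (-0.52), a protease subunit of the inner membrane.

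Chaperones of the endoplasmic reticulum, which answer to other factors than HSF1, were closer to the background. Of 18 genes 3 fell (16.7%, against 19.6% of all tested genes) and 1 rose (20.6% of all tested genes did), with a median of -0.06. The gene that rose was Dnajb9 (0.78, adjusted p = 0.00766, limma), a cochaperone of BiP, and the lower ones included Pdia4 (-0.59), a disulfide isomerase, and Canx (-0.48), calnexin. Only 4 small heat shock protein genes were tested, of which Hspb8 fell by 0.74 (adjusted p = 0.00694, limma), and of 3 genes in the HSF list Hsbp1, which encodes a small protein that binds HSF1 trimers, fell by 1.08 (adjusted p = 0.00346, limma).

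**Figure D3:**
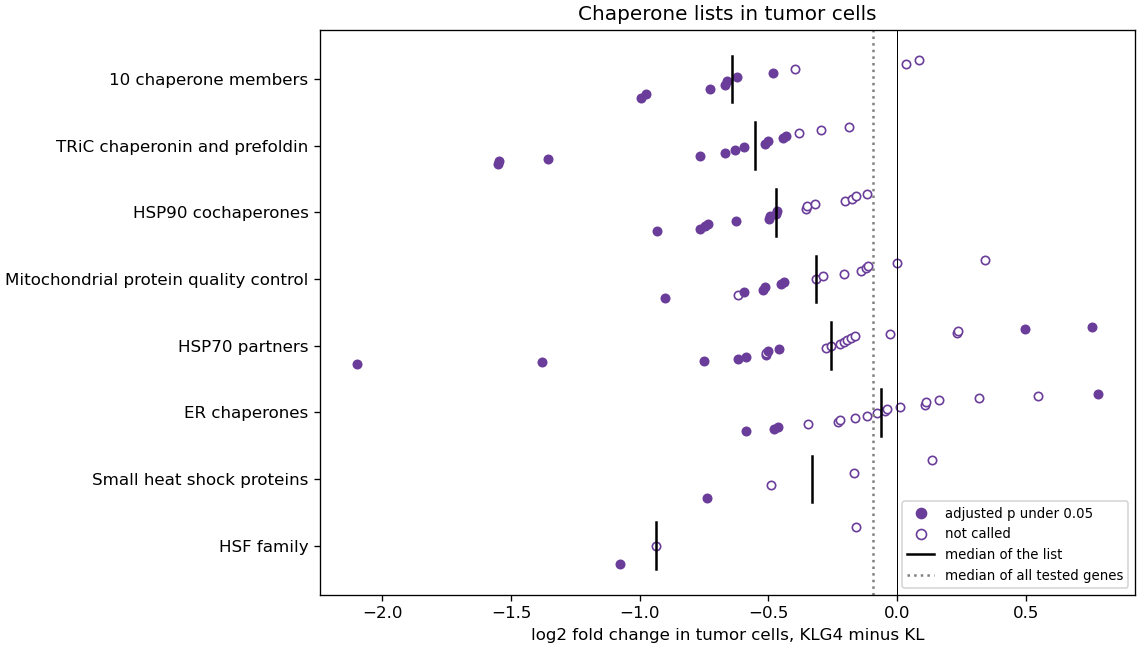
Log2 fold change in tumor cells, KLG4 minus KL, of every tested gene in the member list and in 7 other chaperone lists, with filled points for an adjusted p under 0.05, black bars for list medians and a dotted line for the median of all tested genes (-0.09). The medians of the TRiC and prefoldin list (-0.55) and of the HSP90 cochaperones (-0.47) are near that of the members (-0.64), and the ER list (-0.06) is near the dotted line.

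In TRMs the member genes were not called, and the inducible HSP70 pair had the largest differences, in the opposite direction. None of the 9 members in the table passed an adjusted p of 0.05 in limma (background 1.8%), and 2 passed an unadjusted p of 0.05 (background 28.3%). In 7 of 9 members the KLG4 pair exceeded the KL pair, where 53.7% of all tested genes did, and in 1 the KLG4 pair lay below (background 8.95%). The median log2 fold change of the members was 0.38, as was that of all 10990 tested genes, so differences in TRMs are given below also relative to that shift.

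Hspa1a was at 6.13 and 13.2 RPKM in KL TRMs and at 19.9 and 27.6 RPKM in KLG4 TRMs. The log2 fold change was 1.37 (SE 0.39, adjusted p = 0.1003, limma), or 0.99 above the median gene. The KL libraries differed from each other by more RPKM than the nearest libraries of the genotypes did, and Hspa1a rested on as few as 182 reads. Hspa1b was at 14.6 and 18.0 RPKM in KL and at 33.5 and 50.4 RPKM in KLG4, with a log2 fold change of 1.33 (SE 0.25, adjusted p = 0.059, limma), or 0.95 above the median gene. Hspa1b passed with a pseudocount of 1 (adjusted p = 0.047) and with a filter at a mean of 5 RPKM (0.035), and both genes passed in limma-voom on the recovered reads (0.012 for Hspa1a and 0.00432 for Hspa1b). With the replicate number as a block both passed too (0.035 and 0.027), but replicate numbers did not pair these libraries (correlation of deviations -0.06). Over all alternatives the adjusted p in TRMs ran from 0.0122 to 0.202 for Hspa1a and from 0.00432 to 0.135 for Hspa1b.

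Neither HSP90 gene was called in TRMs. Hsp90aa1 was at 484 and 490 RPKM in KL and at 416 and 393 RPKM in KLG4, a log2 fold change of -0.27 (SE 0.14, adjusted p = 0.266, limma) or -0.65 relative to the median gene. Hsp90ab1 was at 1294 and 1587 RPKM in KL and at 2014 and 1734 RPKM in KLG4, a log2 fold change of 0.38 (SE 0.18, adjusted p = 0.225, limma), equal to the median gene. The direction of Hsp90ab1 turned to -0.01 when reads of mitochondrially encoded genes and their nuclear copies were taken out.

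The remaining members of TRMs did not pass either. Dnajb1 was at 6.99 and 6.35 RPKM in KL and 10.6 and 7.67 RPKM in KLG4, and Hsph1 at 7.45 and 8.61 RPKM in KL and 13.2 and 9.06 RPKM in KLG4. Hspd1 was at 92.2 and 94.4 RPKM in KL against 108 and 106 RPKM in KLG4, and Hspe1 at 90.5 and 127 RPKM against 141 and 127 RPKM, where the nearest libraries of the 2 genotypes were almost equal. The log2 fold changes of these 4 genes were 0.20 to 0.45 (adjusted p 0.288 to 0.394, limma), with Hspd1 and Hspe1 changing sign under TMM scaling. Hsf1 overlapped between genotypes at 3.96 and 2.22 RPKM in KL and 3.61 and 2.23 RPKM in KLG4, on 41 to 195 reads, and lay -0.44 from the median gene on the log2 scale. Hspb1 was not listed in the table.

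**Figure D4:**
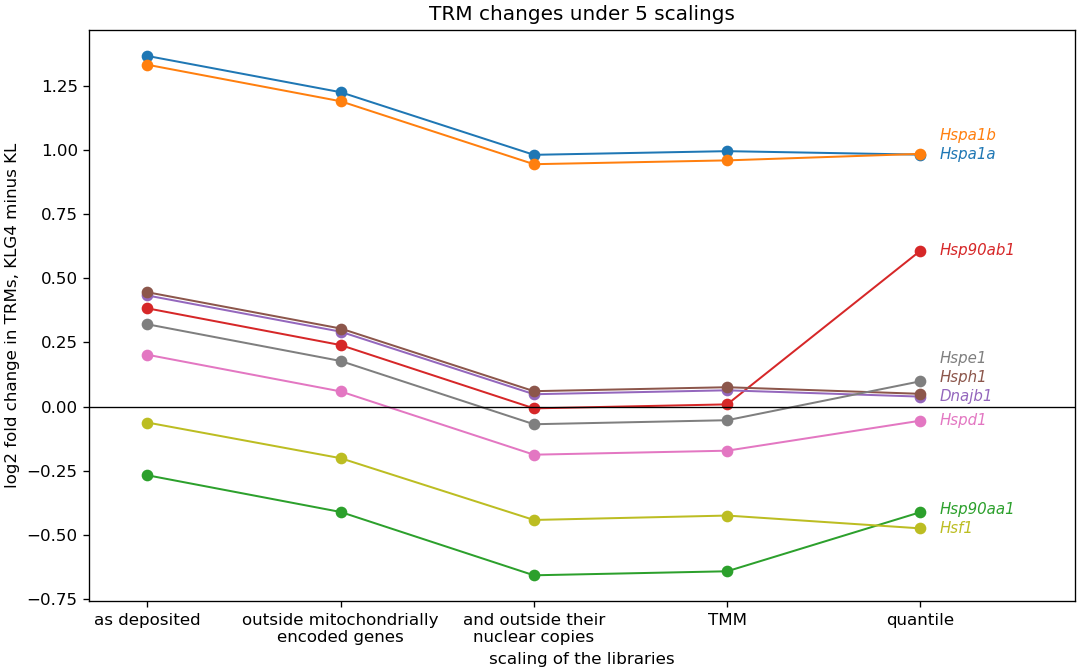
Log2 fold change of 9 members in TRMs, KLG4 minus KL, with the values as deposited and under 4 other scalings of the libraries. Hspa1a and Hspa1b stay near 0.95 or higher and Hsp90aa1 and Hsf1 stay below 0 throughout, whereas Hsp90ab1, Hspd1 and Hspe1 cross 0.

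The other chaperone lists gave no calls in TRMs. None of 85 tested genes passed an adjusted p of 0.05 in limma, and 24 passed an unadjusted p of 0.05 (28.2%, against 28.3% of all tested genes). On the recovered reads limma-voom called 17 of the 85 (20%, against 18.2% of all genes tested there). Among the 18 ER chaperone genes 15 passed an unadjusted p of 0.05 in limma (83.3%, against 28.3%), the KLG4 pair exceeded the KL pair in 18 of 18 (53.7% of all tested genes), and the median log2 fold change was 0.70, against 0.38 over all genes. Hyou1, an ER-resident HSP110 relative, was at 8.16 and 14.0 RPKM in KL and at 28.9 and 22.6 RPKM in KLG4 (log2 fold change 1.25, adjusted p = 0.080), and Spg7, a mitochondrial protease gene, was at 9.10 and 11.1 RPKM against 20.2 and 22.5 RPKM (1.08, adjusted p = 0.058). Of the 16 immediate early genes Jund was called higher (1.64, adjusted p = 0.0475, limma), where 1.8% of all tested genes were called in either direction. Dusp1 was at 1.00 and Egr1 at -1.11 without passing. In this list 7 genes passed an unadjusted p of 0.05 in limma (28.3% of all tested genes did). The KLG4 pair lay above in 11 (53.7% of all) and below in 1 (8.95%), and the list median was 0.49. Markers of alveolar type 2 cells summed to 171 and 182 RPKM in KL TRMs and to 35.9 and 69.4 RPKM in KLG4 TRMs. Sftpc was the largest part (87.1 and 107 RPKM against 16.4 and 40.4 RPKM), and of the 8 markers 5 lay below in KLG4 and 2 above. Alveolar macrophage markers summed to 9242 and 9267 RPKM in KL against 13498 and 12594 RPKM in KLG4. The latter sum was carried by Chil3 (2953 and 3150 RPKM in KL, 7512 and 6236 RPKM in KLG4), and of the 10 alveolar macrophage markers 3 lay above in KLG4, 3 below and the median log2 fold change was -0.02. Whether these marker levels, or sex, bear on the chaperone values was not tested.

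In MDMs no member was called. None of 9 members passed an adjusted p of 0.05 in limma (background 0.0%) and none an unadjusted p of 0.05 (background 6.74%), and limma-voom on the recovered reads called 0 as well. One member lay above in both KLG4 libraries (background 25.4%), 2 lay below (background 19.1%) and 6 overlapped, and the median log2 fold change was -0.17, against 0.02 over 10475 tested genes.

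The member above was Hsf1, at 3.58 and 3.87 RPKM in KL and 4.85 and 4.95 RPKM in KLG4 (log2 fold change 0.39, SE 0.23). The members below were Hspe1, at 44.6 and 74.0 RPKM against 36.8 and 40.6 RPKM (-0.57, SE 0.30), and Dnajb1, at 19.5 and 20.6 RPKM against 19.3 and 17.5 RPKM (-0.12, SE 0.19). The smallest adjusted p of any member was 0.679 in limma.

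Among the overlapping members the HSP70 pair varied within both genotypes, with Hspa1a at 20.7 and 32.1 RPKM in KL against 15.6 and 25.9 RPKM in KLG4 and Hspa1b at 31.4 and 57.0 RPKM against 26.8 and 52.4 RPKM. Hsp90ab1 was at 582 and 1096 RPKM in KL against 662 and 648 RPKM in KLG4, Hsp90aa1 at 462 and 621 RPKM against 491 and 468 RPKM, and Hspd1 at 27.8 and 53.0 RPKM against 31.3 and 33.7 RPKM. For these 3 genes KL replicate 2 was the highest library and KL replicate 1 the lowest. Hsph1 was at 3.86 and 5.27 RPKM in KL and 5.39 and 4.34 RPKM in KLG4.

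The MDM values depended on which KL library was kept. Without KL replicate 2 the median of the members was 0.17, and without KL replicate 1 it was -0.60 and 3 members passed in limma, Hsp90ab1 (adjusted p = 0.028), Hspd1 (0.034) and Hspe1 (0.022), all lower. In that fit 25.5% of all tested genes passed, and the single KL library, replicate 2, is assumed to vary like the KLG4 pair. In KL replicate 2 the macrophage markers summed to 3006 RPKM and in the other 3 libraries to 1269 to 1435 RPKM, the epithelial markers to 259 RPKM against 18.8 to 74.5 RPKM, and the neutrophil markers to 10730 RPKM against 18251 to 23675 RPKM. As sums, neutrophil markers thus exceeded the macrophage markers in every library labelled MDM. These sums were carried by S100a9 (9379 to 21106 RPKM) and by the macrophage marker Lyz2 (1019 to 2596 RPKM). Their part in the chaperone levels was not tested. Of 82 genes tested in the other chaperone lists none passed an adjusted p of 0.05 in limma (background 0.0%). An unadjusted p of 0.05 was passed by 2 (background 6.74%).

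Levels were set side by side across populations without a test, because each table was made separately. Tumor cells had the highest group means of 8 of the 9 members listed in all 3 tables in both genotypes, the exception being Hspe1, where KLG4 tumor cells (91.5 and 94.5 RPKM) lay below KLG4 TRMs and overlapped KL TRMs. The mean of KL tumor cells was 43.4 times that of KL TRMs for Hspa1a, 33.6 times for Hspa1b, 11.2 times for Dnajb1 and 8.50 times for Hsph1. The value for Hspa1a was 68.5 times without KL TRM replicate 2 and 31.8 times without KL TRM replicate 1. For the genes that are transcribed without stress it was 2.53 times for Hsp90ab1, 1.93 times for Hspd1 and 1.70 times for Hspe1, and for the stress-inducible Hsp90aa1 it was 2.604 times. Against KL MDMs the order was different, with 15.9 times for Hspa1a, 14.95 for Hsph1, 12.4 for Hspa1b, 4.45 for Hspd1, 4.34 for Hsp90ab1, 3.72 for Dnajb1, 3.12 for Hspe1, 2.34 for Hsp90aa1 and 1.53 for Hsf1. The lowest tumor cell library was 6.55 times the highest library of TRMs or MDMs for Hspa1a, 5.69 times for Hspa1b, 3.61 times for Hsph1, 2.22 times for Dnajb1, 1.503 times for Hsp90aa1, 1.14 times for Hsp90ab1, 1.07 times for Hspd1, 1.06 times for Hsf1 and 0.648 times for Hspe1.

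TRMs and MDMs had different orders, and in the libraries labelled MDM the summed neutrophil markers exceeded the macrophage markers. Hspd1, Hspe1, Hsp90ab1 and Hsph1 were higher in TRMs than in MDMs in every library, whereas Dnajb1 was higher in MDMs (17.5 to 20.6 RPKM) than in TRMs (6.35 to 10.6 RPKM). For Hspa1a and Hspa1b, KL MDMs, KLG4 TRMs and KLG4 MDMs overlapped in that order and KL TRMs were lowest. Hsp90aa1 overlapped between KL MDMs and KL TRMs, and between KL TRMs and KLG4 MDMs. Hsf1 had its lowest libraries in TRMs, where both genotypes overlapped.

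The share of reads taken by the members was set within each library. All members together took 2.00% and 2.05% of counted reads in KL tumor cells and 1.34% and 1.31% in KLG4 tumor cells, most of it (1.58% and 1.60%, against 1.08% and 1.06%) from the HSP90 genes. In TRMs the share was 0.630% and 0.730% in KL and 0.846% and 0.753% in KLG4, and in MDMs 0.395% and 0.635% against 0.429% and 0.425%. As a share of reads outside mitochondrially encoded genes, a measure added after seeing the data, it was 2.09% and 2.16% in KL against 1.47% and 1.44% in KLG4 tumor cells, 0.726% and 0.804% against 0.858% and 0.772% in TRMs, and 0.400% and 0.657% against 0.431% and 0.428% in MDMs. Tumor cells were thus separated by genotype on both measures and MDMs on neither, and the narrow separation in TRMs was lost outside mitochondrial reads.

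The ratio of Hsp90ab1 to Hsp90aa1 was 3.12 and 2.65 in KL tumor cells and 2.32 and 2.47 in KLG4 tumor cells. In TRMs it was 2.67 and 3.24 in KL and 4.84 and 4.42 in KLG4, the highest of the 6 groups, and in MDMs it was 1.26 and 1.77 against 1.35 and 1.39. The ratio of the inducible pair Hspa1a and Hspa1b to Hspa8, the constitutive HSP70, was 0.0147 and 0.0254 in KL TRMs and 0.0460 and 0.0594 in KLG4 TRMs, which did not overlap. In tumor cells it was 0.422 and 0.654 in KL and 0.417 and 0.418 in KLG4, where the nearest libraries were almost equal, since Hspa8 itself was at 2048 and 1641 RPKM in KL and 1301 and 1278 RPKM in KLG4. In MDMs it was 0.109 and 0.108 in KL and 0.101 and 0.182 in KLG4. These ratios were not tested.

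**Figure D5:**
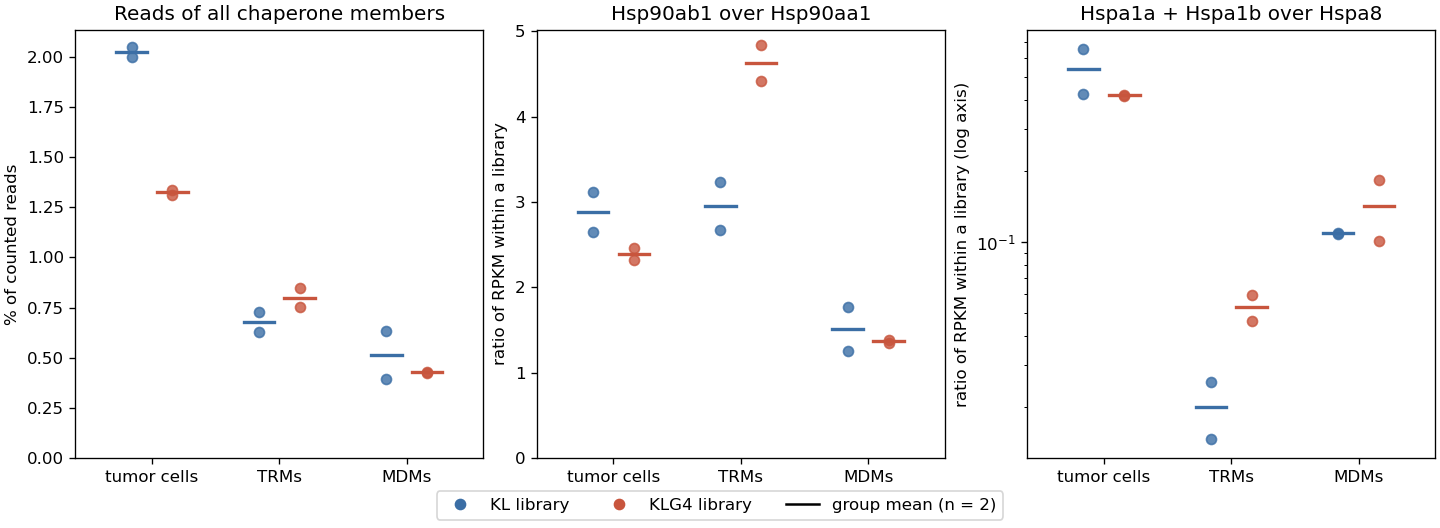
Share of counted reads taken by all members, ratio of Hsp90ab1 to Hsp90aa1, and ratio of the Hspa1a and Hspa1b sum to Hspa8 (log axis), in each library by population, with bars for means of 2. The read share is 1.31% to 1.34% in KLG4 tumor cells and 2.00% to 2.05% in KL tumor cells, and KLG4 TRMs have the highest Hsp90ab1 to Hsp90aa1 ratios (4.42 and 4.84).

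The likeness of the members to each other varied over the 12 libraries. With the mean of each population removed, the gene most like Hspa1a among 4125 genes was Gm20481 (Pearson r = 0.985), which shares its bases, followed by Caml (0.974) and Kif3a (0.959). Hspa1b ranked 8th (0.937), followed among the members compared by Hsp90ab1 (0.760), Hspe1 (0.745), Hspd1 (0.662), Dnajb1 (0.577) and Hsp90aa1 (0.161). The genes most like Hspd1 were Nol12 (0.989), Cbx3 (0.987) and the TRiC subunit gene Cct3 (0.983), with Hsp90ab1 at rank 22 (0.956) and Hspe1 at rank 136 (0.905). For Hsp90aa1 they were Phf14 (0.913), Sdf2 (0.913) and Psmc2 (0.903). The 12 libraries share genotype, depth and cell composition differences, and these values are a description.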

How the data were processed

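Bulk RNA sequencing of sorted tumor cells, TRMs and MDMs was analysed in 12 libraries. The series holds 5 more samples, not used here. As described by the labels and the study's methods, poly(A) RNA was sequenced as 150-base pairs from a kit that does not keep strand, trimmed with Trim Galore 0.6.4, aligned with HISAT2 2.0.5 to the mouse genome and counted with featureCounts 2.0.0. The RPKM values deposited by the authors came as 1 table per population and carried no further scaling between libraries. Their columns of fold changes and p-values were not used. Groups came from sample titles.

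The 3 tables were fitted separately with limma 3.58.1 under R 4.3.3. Genes that reached 1 RPKM in 2 or more of the 4 libraries entered, as log2(RPKM + 0.1), and the variance was moderated with a trend on the mean. Tests were two-sided with Benjamini-Hochberg adjustment over all genes of a table, and a call is an adjusted p under 0.05. Fold changes on this scale understate those of low genes. The methods of the study name a count test, but no counts are in the tables. Reads were recovered from the steps of RPKM times gene length: at least 99.99% of values below 2000 reads were within 0.05 of a whole number. At most 32.5% of counts below 30 were odd in any library, so both mates were mostly counted and counting noise is larger than read numbers imply. All 10 members passed the filter in tumor cells and all 9 listed did in TRMs and MDMs.

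The members, the other lists and the tests were chosen with earlier results of these data known. Besides the members, the genes named are at most 3 per list with the largest called changes and a mean of at least 5 RPKM in 1 group, in TRMs those of an unadjusted p below 0.05 that changed 2-fold or more, the 3 genes most like each of Hspa1a, Hsp90aa1 and Hspd1, and genes said to be chosen otherwise. Gene positions are from GRCm38. Shared 75-base stretches were counted in GENCODE M21 transcripts. Replicate numbers did not pair the libraries (correlation of deviations 0.02 in tumor cells, -0.06 in TRMs and 0.05 in MDMs). The fit was tested on simulated data.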

Additional observations from a re-analysis of the deposited data

Results flagged for a closer look

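In all, 9 differences were singled out because every KLG4 library of one population lay on one side of its KL libraries and every KLG4 library of another population on the opposite side. None of these differences was tested, since the tables were made separately, and how many of all genes meet this rule was not counted. In each the value is the log2 fold change (KLG4 minus KL) of the first population minus that of the second. Between tumor cells and TRMs it was -2.36 for Hspa1a and -2.06 for Hspa1b, the inducible HSP70 genes, -1.10 for Dnajb1, -0.93 for Hsph1, -1.05 for Hsp90ab1, -0.82 for Hspd1 and -1.30 for Hspe1. In tumor cells these 7 genes were lower in KLG4, where 42.2% of all tested genes lay below. In TRMs 53.7% of all tested genes lay above in KLG4, and relative to the median gene of each population the difference was largest for Hspa1a (-0.90 in tumor cells and 0.99 in TRMs) and Hspa1b (-0.63 and 0.95), while Hspd1 (-0.53 and -0.18) and Hspe1 (-0.88 and -0.06) were below the median gene in both. Between TRMs and MDMs the value was 0.55 for Dnajb1 and 0.89 for Hspe1, neither of which passed the test in either population. In MDMs 19.1% of all tested genes lay below in KLG4. Near ties decided the side of Hspe1 in TRMs (127.36 RPKM in KL, 127.48 RPKM in KLG4) and of Dnajb1 in MDMs (19.488 RPKM in KL, 19.325 RPKM in KLG4).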

How the results depend on the processing

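In all, 12 alternatives that kept all libraries were tried in each population, beside leaving out each library in turn. One of them, scaling to reads outside mitochondrially encoded genes and their nuclear copies, was chosen after seeing the data. In tumor cells 6 to 8 members passed under these 12 (36.3% to 48.8% of all genes), the median of the members stayed between -0.64 and -0.53, and none of the 7 called members changed direction in any alternative, with a highest adjusted p of 0.321 (Hsp90ab1, limma). Other chaperone genes called in tumor cells numbered 42, and 27 under TMM scaling (37.8% of all genes), 23 without a trend (37.1%), 27 outside mitochondrial genes and their copies (36.3%), 33 with the replicate number as a block (39.1%) and 38 to 46 under the other 8. Leaving out a library gave 0 to 8 members and 6 to 58 other chaperone genes, where 14.8% to 54.3% of all genes passed, with 0 members and 6 or 7 other genes without a KLG4 library. The median of all genes moved from -0.09 to -0.25 under quantile scaling. The cause of these changes was not tested.

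In TRMs 150 genes were called higher and 48 lower, against 23 and 37 under quantile scaling, 17 and 30 under TMM scaling, and 7 and 22 outside mitochondrial genes and their copies. The members called numbered 0, and 1 with a pseudocount of 1 (4.46% of all genes), 1 at a mean of at least 5 RPKM (9.61%), 2 in limma-voom on recovered reads (18.2%), 2 with the replicate block (4.28%), and 0 to 2 without a library (1.97% to 24.6%). The other chaperone genes called numbered 0, and 1, 6 and 17 under the first 3 of these and 0 to 14 without a library. The median of the members was 0.38, and 0.0495 under quantile scaling, 0.0083 under TMM scaling and -0.0073 outside mitochondrial genes and their copies, where the median of all genes was -0.0098, 0.0121 and 0.0001. In MDMs the counts stayed at 0 in every alternative that kept all libraries. They rose above 0 only without KL replicate 1, where a single KL library was left. The block changed no other call of a member. Replicate numbers do not mark shared animals in the labels.

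Reversed signs occurred in members that were not called. Under quantile scaling Hsf1 in tumor cells was at -0.0185 and Hspd1 in TRMs at -0.0553. Under TMM scaling Hspd1 and Hspe1 in TRMs were at -0.17 and -0.0535, and outside mitochondrial genes and their copies at -0.19 and -0.0692, with Hsp90ab1 at -0.0073. Hsf1 in TRMs was at 0.0247 in limma-voom. Leaving out each library gave ranges of -0.0912 to 0.16 for Hspb1 and -0.12 to 0.29 for Hsf1 in tumor cells, of -0.47 to 0.34 for Hsf1 in TRMs, and in MDMs of -0.12 to 0.32 for Hsph1, -0.72 to 0.0068 for Hspa1a, -0.66 to 0.31 for Hspa1b, -0.37 to 0.0524 for Hsp90aa1, -0.74 to 0.17 for Hsp90ab1 and -0.70 to 0.22 for Hspd1. The limits are 2 libraries per group, a KLG4 tumor pair whose spread may not be that between animals, and for Hsf1 as few as 41 reads.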
